A study of Mus musculus with 2 samples.

Results

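The potassium channel genes were taken as all protein-coding genes of the GENCODE mouse annotation on build mm10 whose symbol starts with Kcn. There were 94 of them among 21797 protein-coding genes with a unique symbol, in 21 subfamilies by symbol prefix. Open chromatin had been mapped by DNase-seq, which cuts accessible DNA in isolated nuclei with DNase I, in left cerebral cortex of adult male B6CASTF1/J mice aged 18 to 20 months. These mice are F1 hybrids of a C57BL/6 strain and the wild-derived CAST strain. The study has 1 group with 2 libraries, replicates 1 and 2, and no other condition. They come from separate tissue samples under a single donor entry, so the spread between them may be technical. With 1 group of 2 libraries no test between conditions was possible and the values below are descriptions.

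Potassium channels let potassium leave the cell and so set the resting potential, end the action potential and pace repetitive firing. Voltage-gated channels (Kcna to Kcnd, Kcnh, Kcnq) open on depolarisation, channels of the Kcnma, Kcnn and Kcnt families open on calcium or sodium, inward rectifiers (Kcnj) and tandem-pore leak channels (Kcnk) act near rest, and silent and auxiliary subunits change the behaviour of the pore-forming ones. A promoter open to DNase I is usual for an active gene but is no measure of its transcription, and cortical enhancers often lie in introns far from the start site.

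The tissue label was checked against marker genes. Promoter peaks in both libraries were present at 8 of 8 neuronal markers and 7 of 7 excitatory neuron markers, at 1 of 5 inhibitory neuron, 1 of 6 astrocyte, 4 of 6 oligodendrocyte and 1 of 5 microglial markers, at 0 of 4 endothelial and 0 of 6 hindbrain and spinal cord markers, and at 1 of 6 markers of other organs (Nphs1). The tissue is a mix of cell types, and fewer cells with an open site cannot be told apart from a site less open in each cell. Replicate 1 had 73221 peaks and replicate 2 had 111105. Read totals were not used, so depth is unknown and no counting interval is given.

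A peak within 1 kb of a transcription start site (TSS) of the gene was found at 67 Kcn genes (71.3%) in replicate 1 and 65 (69.1%) in replicate 2, where all protein-coding genes gave 60.7% and 61.2%. Both libraries had such a peak at 62 members (66.0%), against 58.7% of all genes. Neither library had one at 24 members, where 36.8% of all genes lacked one, and 8 members had one in a single library, where this held for 4.51% of all genes. The share of Kcn genes with an open promoter was therefore slightly above the background and not far from it. The longer peak lists deposited beside the main ones gave 73 members and 63.3% of all genes open in both libraries. The promoters of Kcn genes differed more from those of all genes in strength. Each gene was given the signal of its strongest promoter peak, a value that the authors deposited. Over the 62 Kcn genes open in both libraries the median of this signal was 1.89 and 1.55 (1.72 ± 0.237, SD, n = 2), and over the 12789 genes of the background it was 3.93 and 3.01 (3.47 ± 0.652). Of the 62 members, 55 lay below the median of all open genes in mean signal and 31 lay below its percentile 25. Only Kcnab2 and Kcnn2 lay at percentile 75 or above. Low signal was not particular to Kcn genes. The medians were 2.88 and 2.06 over the 8 neuronal markers and 2.30 and 1.69 over the 7 excitatory neuron markers.

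**Figure D1:**
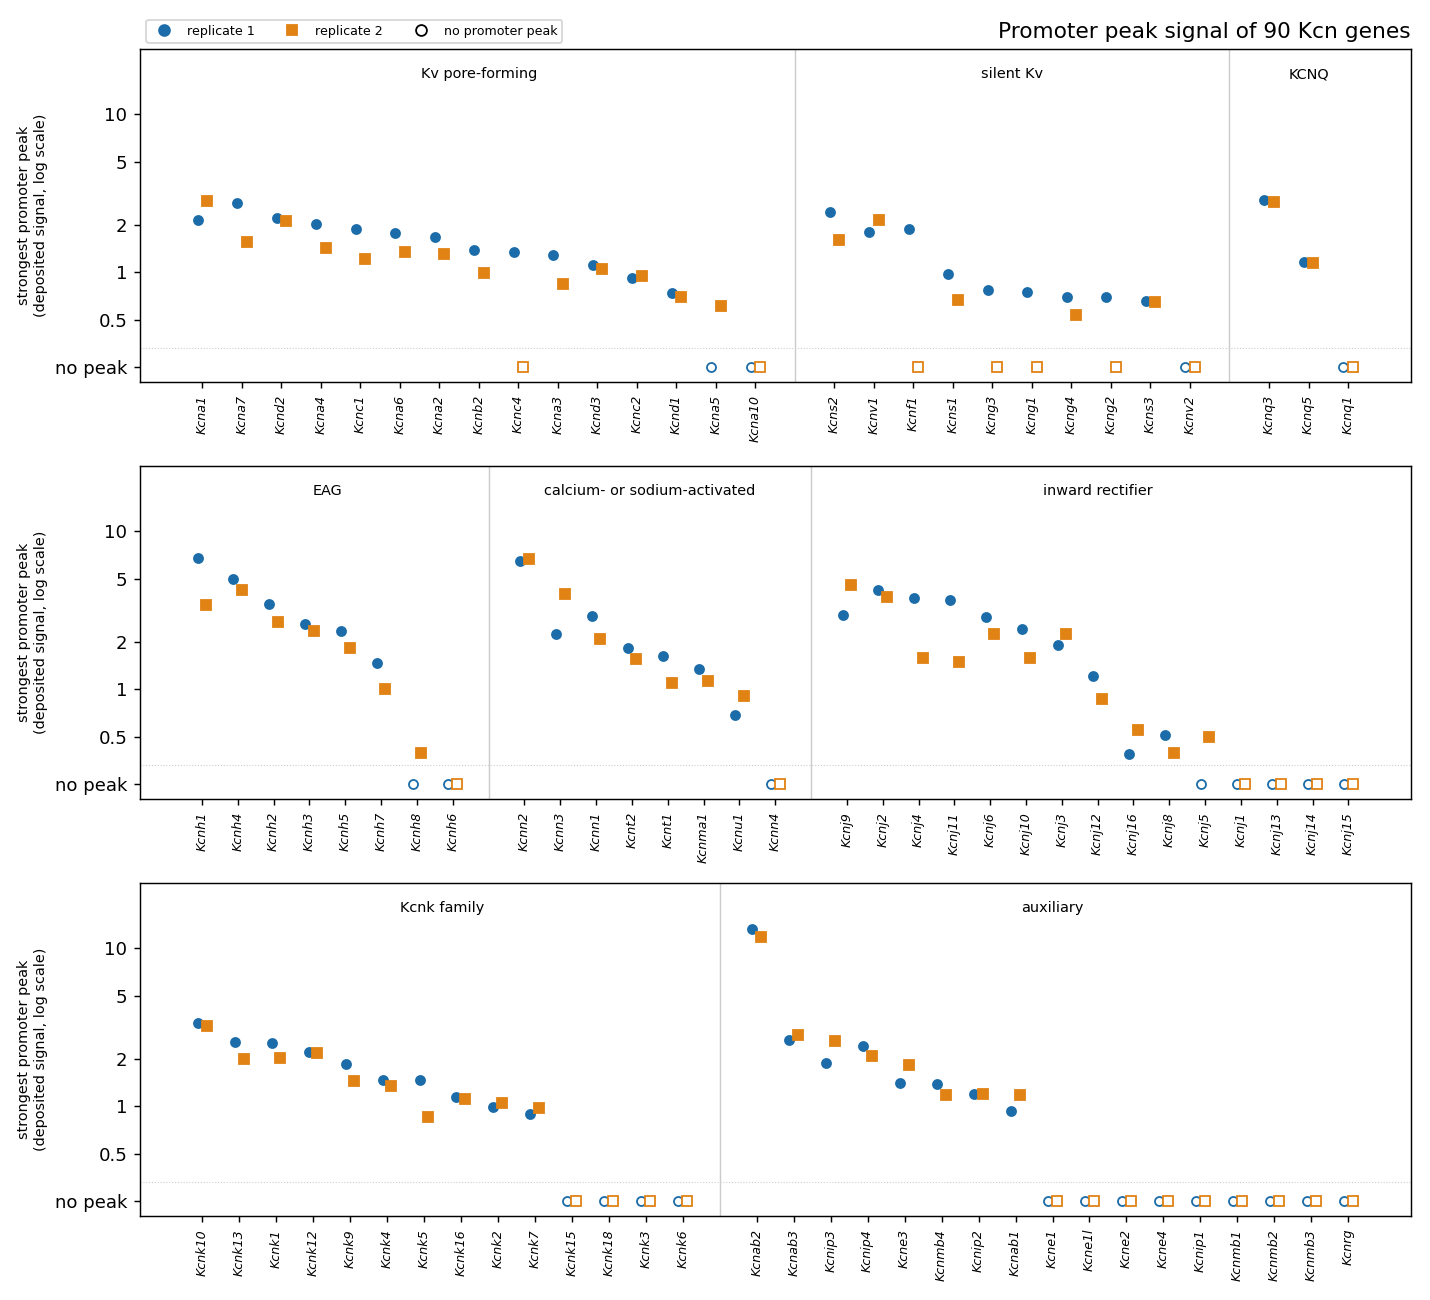
Signal of the strongest promoter peak of 90 of the 94 Kcn genes, on a log axis, in replicate 1 (circles) and replicate 2 (squares), grouped by role and ordered by their higher value. Open symbols mark libraries with no promoter peak. Kcnab2 stands above all other members at 13.2 and 11.8, and most others lie between 0.5 and 5.

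CpG content around the TSS is a sequence feature that promoter openness follows closely in mammals. All genes were split into 5 equal groups by the observed over expected CpG ratio within 500 bp of the main TSS. In the lowest group, 3 of 7 Kcn genes were open in both libraries (42.9%), against 6.74% of all genes, and in the next 11 of 25 (44.0%), against 26.3%. A peak at any TSS counted as open, while CpG was taken at the main TSS. Kcne3, in the lowest group with a ratio of 0.098, had its peak only at a later start site with a ratio of 0.544. In the next group Kcnj16 and Kcnu1 also had no peak at the main TSS. In the middle group the shares were 24 of 29 (82.8%) and 75.1%. At the CpG-rich end the order turned round. There 17 of 23 Kcn genes were open in the fourth group (73.9%), against 90.9% of all genes, and 7 of 10 in the highest (70.0%), against 94.3%. The signal of open Kcn promoters was below that of all genes in every group. In the highest group the median was 1.34 in replicate 1 and 1.15 in replicate 2 for Kcn genes, and 4.88 and 3.48 for all genes. In the fourth group, Kcnk3, Kcnk6, Kcnk15 and Kcnq1 had no promoter peak in either library.

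**Figure D2:**
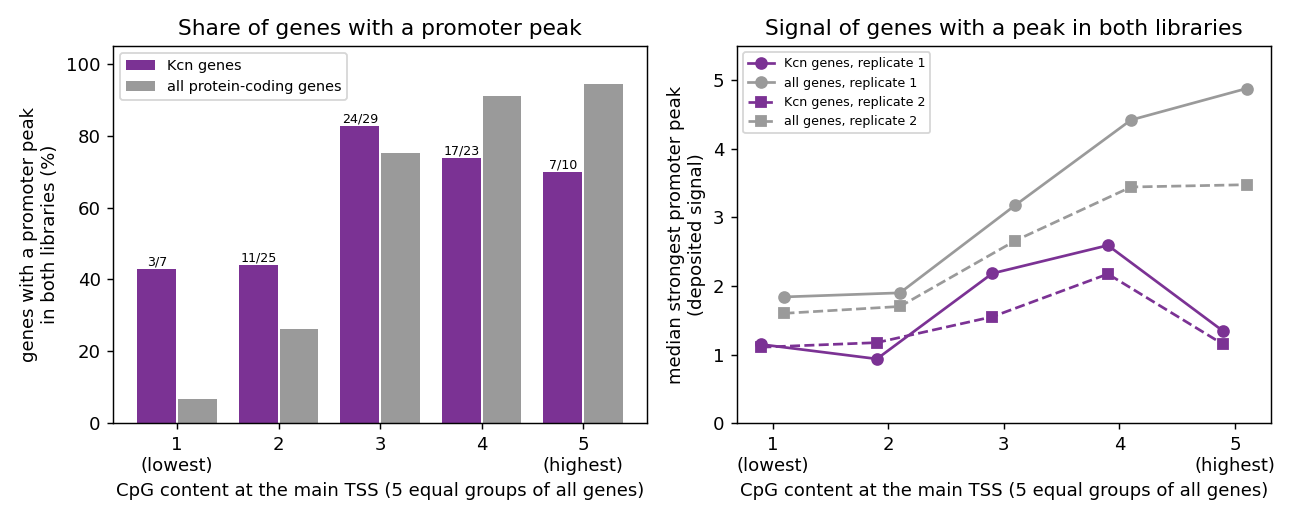
Left, share of genes with a promoter peak in both libraries by CpG content, in 5 equal groups of all genes, for Kcn genes (left bars, with counts) and all protein-coding genes (right bars). Right, median signal of the strongest promoter peak of genes open in both libraries, for each replicate. Counting a peak at any TSS, Kcn genes were open more often than all genes at low main-TSS CpG content and less often at high. Their signal was lower in all 5 groups.

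Open Kcn promoters also held more listed peaks. An open Kcn gene had 2.24 promoter peaks on average in replicate 1 and 2.45 in replicate 2, against 1.86 and 1.88 for all open genes. Promoters with 4 or more peaks made up 22.4% and 21.5% of open Kcn genes and 6.97% and 7.95% of all open genes. Every start site of a gene was counted, and how far the number of start sites enters this was not tested. Peaks that overlap within a list were counted separately, so these are counts of list entries and not of separate open sites. How far such overlap enters them was not tested. The strongest peak covered a TSS in 52.2% and 53.8% of open Kcn genes, against 68.7% and 67.2% of all open genes. Footprints, short stretches protected from DNase I inside open chromatin, numbered 11.2 and 10.7 per kb of Kcn promoter peak, against 12.6 and 11.99 per kb of promoter peak over all genes. Of 387 Kcn promoter footprints in replicate 1, 49.4% overlapped one of replicate 2, against 62.9% for all genes, and of 437 in replicate 2, 43.5% overlapped one of replicate 1, against 57.0%.

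Among the voltage-gated pore-forming genes of the Kcna to Kcnd subfamilies, 14 of 17 were open in both libraries, that is, had a promoter peak in each. Kcna1, a low-threshold channel of axons, had 2.13 in replicate 1 and 2.81 in replicate 2, with its strongest peak about 1 kb upstream of the TSS. It had 5 listed promoter peaks in each library, but some of those in replicate 2 overlap each other. Kcnd2, which carries the A-type current of dendrites, had 2.20 and 2.10. Kcna7 had 2.73 and 1.55, and the other Kcna and Kcnd members open in both libraries lay lower in mean signal, down to 0.732 and 0.694 at Kcnd1 on the X chromosome, of which males have a single copy. Kcnc1, of fast-spiking neurons, had 1.89 and 1.21, and the delayed rectifier Kcnb2 had 1.37 and 0.988. Kcnc4 was open in replicate 1 alone (1.33) and Kcna5, an atrial and vascular channel, in replicate 2 alone (0.607). Kcna10 had no promoter peak in either.

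The silent subunits form no channel alone and join Kcnb subunits. Of these 10 genes, 9 were open in replicate 1 and 5 in replicate 2, the same 5 being open in both. Kcns2 had 2.40 and 1.60 and Kcnv1 had 1.79 and 2.14, so their order differed between the libraries. Kcnf1 (1.89), Kcng1 (0.752), Kcng2 (0.693) and Kcng3 (0.772) had a promoter peak in replicate 1 alone. In the longer peak lists all 4 were open in both libraries. Kcng4 was the only Kcng gene open in both (0.699 and 0.534). Kcnv2, a retinal gene, was open in neither. Here the count of a role hung on 1 library and 1 list.

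The KCNQ channels include those of the M-current, which restrains firing in cortical neurons and to which Kcnq3 and Kcnq5 contribute. Kcnq3 was open in both libraries (2.87 and 2.78), and so was Kcnq5 (1.17 and 1.15). Kcnq1, a cardiac and epithelial gene, had no promoter peak in either list of either library.

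In the ether-a-go-go family (Kcnh), 6 of 8 genes were open in both libraries, with a median signal of 3.02 and 2.50, below that of all open genes. Kcnh1 had 6.75 and 3.44, Kcnh4 had 5.01 and 4.25, and Kcnh2, the gene of the cardiac hERG channel that the brain also expresses, had 3.45 and 2.67. Kcnh3 had 2.59 and 2.33, Kcnh5 had 2.35 and 1.84, and Kcnh7 had 1.46 and 1.00. In mean signal Kcnh1 and Kcnh4 lay above the median of all open genes, and the other 4 below it. Kcnh8 was open in replicate 2 alone (0.394) and Kcnh6 in neither. The sequences of the Kcnh1 and Kcnh4 promoter peaks are shown because, Kcnab2 aside, they had the most footprinted bases among the strongest Kcn promoters on other chromosomes than 18. They cover the part of the peak found in both libraries outside annotated exons, on the strand of the gene, and capitals mark bases that lay in footprints of both libraries. Positions are counted from 1 at the 5′ end.
Kcnh1 promoter (chr1:192190641-192190773, plus strand): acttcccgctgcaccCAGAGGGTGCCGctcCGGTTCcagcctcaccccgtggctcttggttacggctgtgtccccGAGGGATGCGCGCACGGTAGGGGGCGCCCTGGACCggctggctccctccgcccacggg
Kcnh4 promoter (chr11:100759961-100760140, minus strand): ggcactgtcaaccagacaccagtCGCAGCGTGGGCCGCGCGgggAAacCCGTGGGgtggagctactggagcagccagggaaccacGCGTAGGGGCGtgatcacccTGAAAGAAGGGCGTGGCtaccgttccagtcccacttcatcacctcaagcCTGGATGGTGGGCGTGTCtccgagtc
In the Kcnh1 promoter a CTCF core (AGGTGGC or AGGGGGC, either strand) at positions 94 to 100 lay wholly in a footprint, and in the Kcnh4 promoter an EGR sequence (GTGGGCG) at 162 to 168 did. A match is a description of the letters and does not show which factor was bound.

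Of the calcium- or sodium-activated channels, with Kcnu1 grouped among them by name, 7 of 8 were open in both libraries. Kcnn2, a small-conductance channel that shapes the afterhyperpolarisation, had the second strongest promoter of all members, at 6.46 and 6.63, and the libraries differed by less than at any other of the 10 strongest in relative terms. That peak belonged to its downstream start site, also near the TSS of the pseudogene AC121957.1, and the upstream start site, which holds the main TSS, had 2.22 and 2.20. Kcnn3 had 2.23 and 3.99. Kcnn1 had 2.92 and 2.08 at its downstream start site, while the main upstream one had 1.12 in replicate 1 and no peak in replicate 2. The large-conductance channel gene Kcnma1 had a modest promoter (1.34 and 1.13), the sodium-activated Kcnt1 and Kcnt2 had 1.61 and 1.10, and 1.83 and 1.55. Kcnu1, a sperm channel gene, had a weak peak at its internal start site (0.686 and 0.908), and Kcnn4, a channel of blood cells, had none.

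Of the 15 inward rectifiers, 10 were open in both libraries (66.7%), close to the share of all Kcn genes (66.0%). Kcnj2 had 4.24 and 3.81. The G protein-gated channel genes Kcnj9, Kcnj6 and Kcnj3 had 2.94 and 4.56, 2.86 and 2.24, and 1.91 and 2.22, so all 3 were open, with Kcnj9 higher in replicate 2. Kcnj10, the inward rectifier of astrocytes, had 2.42 and 1.57. The next pair gave the largest differences between libraries. Kcnj11, the pore of the ATP-sensitive channel, had 3.68 and 1.49, a log2 difference of 1.30 (replicate 1 minus replicate 2), and Kcnj4 had 3.81 and 1.57, a log2 difference of 1.28. They were the 2 of 62 members (3.23%) beyond 2-fold, against 6.43% of all open genes. Next toward replicate 1 were Kcnh1 (0.97), Kcna7 (0.81) and Kcnk5 (0.78), and among the largest toward replicate 2 were Kcnn3 (-0.84), Kcnj9 (-0.63), Kcnj16 (-0.49) and Kcnip3 (-0.46). The median log2 difference was 0.22 for Kcn genes and 0.32 for all genes. Kcnj1, a renal channel gene, Kcnj13, Kcnj14 and Kcnj15 had no promoter peak, and Kcnj5 had one in replicate 2 alone (0.50). The Kcnj9 and Kcnj11 peaks are shown because a motif in each lay wholly inside a footprint of both libraries.
Kcnj9 promoter (chr1:172329319-172329430, minus strand): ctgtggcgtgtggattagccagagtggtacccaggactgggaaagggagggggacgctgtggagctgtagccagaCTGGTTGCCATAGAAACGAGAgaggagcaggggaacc
Kcnj11 promoter (chr7:46100761-46100920, minus strand): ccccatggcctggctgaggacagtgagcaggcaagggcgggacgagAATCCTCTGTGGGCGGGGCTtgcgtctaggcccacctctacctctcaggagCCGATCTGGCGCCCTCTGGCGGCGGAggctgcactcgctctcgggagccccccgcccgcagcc
In the Kcnj9 peak the RFX sequence GTTGCCA stood at positions 79 to 85, inside the only stretch of the printed sequence that was footprinted in both libraries, of 21 bases. The Kcnj9 promoter held 3 footprints in replicate 1, in 1 peak, and 7 in replicate 2, summed over 2 peaks. In the Kcnj11 peak an EGR sequence stood at 55 to 61 and an overlapping SP/KLF sequence (GGGCGG) at 57 to 62. In the 300-base promoter windows (250 bases before to 50 after the main TSS), Kcnj9 and Kcne3 were the only Kcn genes with RFX sequences. They make up 2.13% of Kcn genes, against 4.20% of all genes with such a sequence, so the Kcnj9 site is not a feature of the family.

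Of the 14 tandem-pore leak channel genes, 10 were open in both libraries. Kcnk10 had 3.36 and 3.22, from its downstream start sites, and 6 and 4 promoter peaks. Kcnk1 (2.53 and 2.03), Kcnk12 (2.22 and 2.18) and Kcnk13 (2.54 and 2.00) followed. Kcnk3 and Kcnk6 had no promoter peak in the main lists but had one in both longer lists (0.990 and 0.807 at Kcnk3, 0.686 and 0.561 at Kcnk6). Kcnk15 and Kcnk18 had none in any list.

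Of 17 auxiliary subunits, 8 were open in both libraries (47.1%). Kcnab2, a cytoplasmic beta subunit of Kcna channels, had the strongest promoter of all members, at 13.2 and 11.8 (12.5 ± 1.04, SD, n = 2), at percentile 99.9 of all open genes. Its peak also lies within 1 kb of a TSS of Nphp4, a gene of primary cilia, so the signal cannot be assigned to either gene. Kcnab3 had 2.64 and 2.82 and Kcnab1 had 0.937 and 1.17. Of the Kcnip genes, which encode calcium-binding partners of Kcnd channels, Kcnip2 (1.20 and 1.19), Kcnip3 (1.89 and 2.60) and Kcnip4 (2.40 and 2.08) were open and Kcnip1 was not. In the Kcne family only Kcne3 was open (1.39 and 1.83), while Kcne1, Kcne1l, Kcne2 and Kcne4 had no promoter peak. In the Kcnmb family Kcnmb4, the beta subunit of the neuronal large-conductance channel, was open (1.37 and 1.17), and Kcnmb1, Kcnmb2 and Kcnmb3 were not. Kcnrg had no promoter peak either.

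The shares differed between lists of members by the site where each is best known. These lists were chosen with earlier results of these data known, so the split is a description and no test. Of 44 genes listed as neuronal, 40 were open in both libraries (90.9%), and the exceptions included Kcnc4, Kcnf1 and Kcnip1. Of 4 listed as glial, 3 were. Of 17 known chiefly from heart, kidney, epithelia or other sites outside the cortex, 5 were (29.4%), namely Kcne3, Kcnj8, Kcnk5, Kcnk16 and Kcnu1. Of 29 in no site list, 14 were (48.3%). The same figure over all protein-coding genes was 58.7%. The median signal of the open genes was 1.96 and 1.58 in the neuronal list and 1.15 and 0.908 in the list outside the cortex. CpG content ran with this: the median observed over expected ratio was 0.645 in the neuronal list and 0.270 in the list outside the cortex, and its part in the result was not tested. Of 31 other genes that work with potassium channels (partner subunits, anchors, potassium transporters and the Hcn channels), 25 were open in both libraries (80.6%). Their median signals, 2.21 and 2.12, also lay below those of all open genes.

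Among the 24 members without a promoter peak, 15 had no base at a false discovery rate of 0.05 or below within 1 kb of a TSS in either library. The longer lists held a promoter peak in both libraries for 4 of the 24, among them Kcne1l, Kcnk3 and Kcnk6. Neither count was made for other genes without a promoter peak, so both describe these members only. Distal peaks in both libraries were found at 17 of the 24 (70.8%), against 37% of the 8025 protein-coding genes without a promoter peak in either library, and 3 of the 24 had none in either (12.5%), against 51.4%. Gene length enters these shares, and its part was not tested.

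Some members have several start sites far apart. Start sites up to 2 kb from the next were put in 1 group, which gave 123 groups for the 94 genes. Of these, 68 had a peak in both libraries (55.3%), against 50.9% of the groups of all genes. Of 24 members with several groups, 14 had 1 open in both libraries (58.3%), against 40.9% of all genes with several groups, 5 had more than 1 (20.8%), against 15.8%, and 5 had none (20.8%), against 43.3%. At Kcnip4 the first of 4 groups had 2.40 and 2.08, the second 0.640 and 0.587, the third, which holds the main TSS, 0.587 and 0.654, and the last no peak. At Kcnma1 the first of 3 groups was open and the internal ones were not, and the same held for the first of 2 groups at Kcnj6, Kcnj12, Kcnh2, Kcnip2, Kcnd3 and Kcnb2. Other members were the other way round. At Kcnn2 and Kcnk10 the later group was the stronger. At Kcne3, Kcnn1, Kcnu1, Kcnj16 and Kcnk2 a later group alone was open in both libraries.

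Distal peaks were those beyond 1 kb of any annotated TSS and within the gene body or 10 kb of it. Kcn windows held 363 of them in replicate 1 and 616 in replicate 2. At least 1 was found for 78 members (83.0%) and 86 members (91.5%), against 58.3% and 67.5% of all genes. Per 100 kb of window the median was 3.55 and 5.91 for Kcn genes (4.73 ± 1.67, SD, n = 2) and 1.73 and 3.18 for all genes (2.46 ± 1.02). Summed over all windows the gap was smaller, at 2.96 and 5.02 per 100 kb for Kcn genes and 2.57 and 4.07 for all genes. It depended on gene length. In genes under 10 kb the median was 3.84 and 4.40 for 23 Kcn genes and 0 in both libraries for all genes, and at 10 to 50 kb it was 4.28 and 7.29 for 35 Kcn genes and 2.24 and 3.07 for all genes. At 50 to 200 kb it was 2.91 and 5.25 for 18 Kcn genes and 2.19 and 3.90 for all genes. At 200 kb or more it was 1.54 and 3.51 for 18 Kcn genes and 1.81 and 3.82 for all genes, so the longest channel genes were not denser in distal peaks. Over all 94 members, 61 of the 363 and 96 of the 616 distal peaks also lay in the window of another protein-coding gene. How often this holds for the distal peaks of other genes was not computed.

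**Figure D3:**
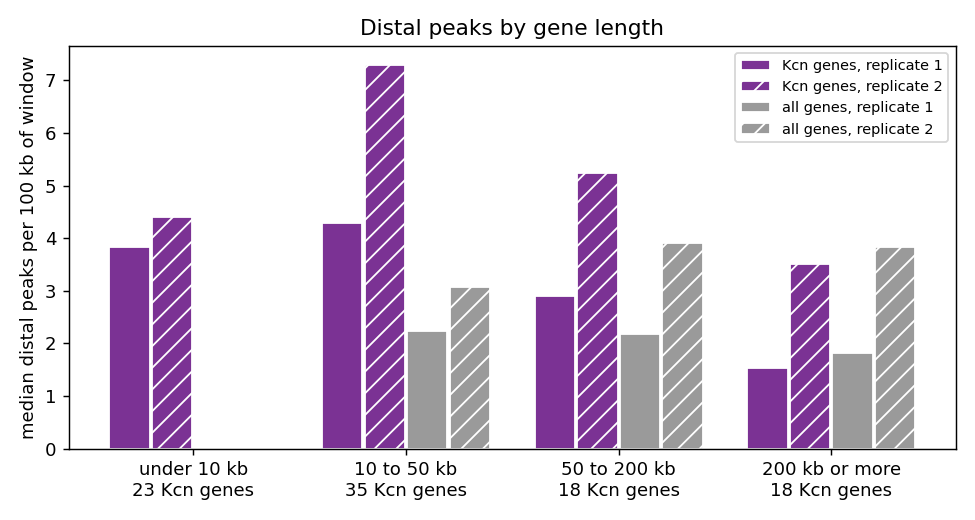
Median number of distal peaks per 100 kb of window (gene body and 10 kb on each side) by gene length, for Kcn genes (left pair of bars) and all protein-coding genes (right pair), with replicate 2 hatched. In each length class under 200 kb, Kcn genes have higher medians than all genes in both libraries, and those of 200 kb or more have lower ones.

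Introns of the member held 246 of 364 pairs of gene and distal peak in replicate 1 and 429 of 617 in replicate 2. The intron share over all genes was not computed, so these counts do not set Kcn genes apart. In replicate 1, 87.3% of the Kcn distal peaks were found again in the other library, and in replicate 2, 51.6% were, where all distal peaks gave 86.9% and 49.1%. Their median signal was 1.28 and 1.01, against 1.11 and 0.827 for all distal peaks, so channel genes had weak promoters but not weak distal peaks. Footprints numbered 13.4 and 11.7 per kb of Kcn distal peak and 13.5 and 11.4 per kb of all distal peaks, which differed by less than the libraries did.

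Among genes with a window of 50 kb or more, the densest included Kcnh2 (7.69 and 13.5), Kcnip3 (9.35 and 11.7), Kcnk12 (9.70 and 11.1), Kcnk9 (9.20 and 10.7), Kcnab2 (9.33 in both), Kcnj6 (6.32 and 10.8) and Kcng2 (5.57 and 8.92), in distal peaks per 100 kb. Kcng2 is in this group without a promoter peak in both libraries. Members with many distal peaks were Kcnma1 (33 and 44), Kcnj6 (17 and 29), Kcnip4 (9 and 30) and Kcnip1 (13 and 19). Among shorter windows Kcnj9 had 2 and 19, and 18 of the 19 also lay in the window of its neighbour Igsf8.

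At Kcnma1, 32 of the 33 distal peaks of replicate 1 were found again in replicate 2, and 29 of these 32 (90.6%) had the higher signal in replicate 2. Their median log2 difference (replicate 1 minus replicate 2) was -0.56. Over all Kcn genes 173 of 317 shared distal peaks (54.6%) were higher in replicate 2, and over all distal peaks in windows of protein-coding genes 49.5% were. The Kcnma1 promoter had its higher value in replicate 1. The 3 exceptions included its strongest distal peak, 3522 bp from the nearest Kcnma1 TSS, at 6.29 and 3.64. Kcnd3 and Kcnh1 leaned the same way (8 of 10 shared peaks higher in replicate 2 at each), and Kcnip1 leaned the other way, with 3 of 10 and a median log2 difference of 0.75. Peaks of 1 gene come from the same 2 libraries and are not independent.

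**Figure D4:**
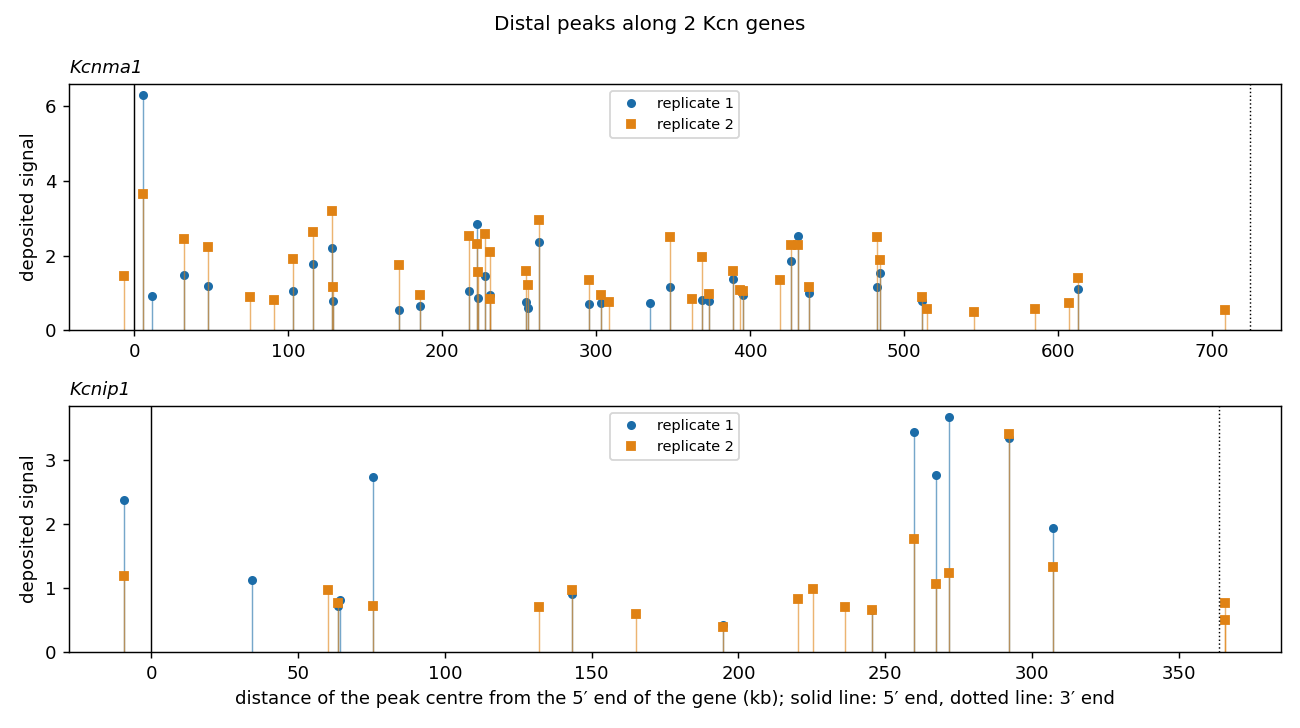
Distal peaks along Kcnma1 and Kcnip1, by the distance of the peak centre from the 5′ end of the gene in kb and the deposited signal, in replicate 1 (circles) and replicate 2 (squares). Along Kcnma1, 29 of 32 shared peaks are higher in replicate 2, and along Kcnip1 3 of 10 shared peaks are higher in replicate 2.

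The strongest distal peak of any member lay 2403 bp upstream of the main TSS of Kcnn1, at chromosome 8, 70865661 to 70865960, with 8.94 and 8.12 (8.53 ± 0.579, SD, n = 2). It was stronger than either Kcnn1 promoter and than every Kcn promoter except that of Kcnab2. Others among the strongest, in mean signal, lay 37691 bp from the nearest Kcna6 TSS (5.71 and 5.27), in introns of Kcnab2 (7.61 and 2.98), Kcnip2 (7.41 and 2.70), Kcnma1 and Kcnip4 (5.61 and 3.98), beside Kcng1 (6.62 and 2.70), and in an intron of Kcnk9 (6.01 and 2.86). A second peak beside Kcnn1, nearer to Arrdc2, had 5.53 and 3.11. The strongest peak at Kcnn1 and the one at Kcna6 were alike in both libraries, and the others named here were higher in replicate 1. The sequence of the strongest Kcnn1 peak is shown because it carries an RFX sequence mostly inside a footprint, and those of Kcnip4, Kcng1 and Kcna6 as examples of a pattern that recurs, again with capitals for bases in footprints of both libraries.
Kcnn1 distal (chr8:70865701-70865960, minus strand): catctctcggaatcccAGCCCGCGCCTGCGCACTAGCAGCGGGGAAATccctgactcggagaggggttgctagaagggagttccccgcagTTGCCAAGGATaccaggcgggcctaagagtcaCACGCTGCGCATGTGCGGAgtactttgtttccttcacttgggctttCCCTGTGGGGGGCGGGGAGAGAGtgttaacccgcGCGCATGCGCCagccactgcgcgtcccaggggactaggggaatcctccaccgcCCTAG
Kcnip4 distal (chr5:49090241-49090420, minus strand): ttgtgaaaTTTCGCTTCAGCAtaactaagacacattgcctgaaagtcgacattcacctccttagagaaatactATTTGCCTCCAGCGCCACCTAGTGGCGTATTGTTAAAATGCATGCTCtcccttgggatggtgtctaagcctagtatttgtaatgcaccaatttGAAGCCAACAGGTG
Kcng1 distal (chr2:168250381-168250540, minus strand): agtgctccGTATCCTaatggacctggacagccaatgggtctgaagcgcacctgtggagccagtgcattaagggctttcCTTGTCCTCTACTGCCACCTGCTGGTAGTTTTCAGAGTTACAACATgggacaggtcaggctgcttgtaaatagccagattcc
Kcna6 distal (chr6:126702281-126702460, minus strand): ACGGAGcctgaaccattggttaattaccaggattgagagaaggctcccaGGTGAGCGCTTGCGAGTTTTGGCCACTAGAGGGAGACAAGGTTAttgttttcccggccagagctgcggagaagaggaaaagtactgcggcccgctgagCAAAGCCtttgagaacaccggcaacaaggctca
In the Kcnn1 peak 6 of the 7 bases of the RFX sequence at positions 90 to 96 were in the footprint, as was an NFI sequence (TTGGCA) overlapping it on the other strand at 92 to 97 and an SP/KLF sequence at 178 to 183. RFX sequences were found in 5.79% and 5.19% of the 200-base windows of Kcn distal peaks, against 4.54% and 4.88% for all distal peaks.

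The footprints in the Kcnip4, Kcng1 and Kcna6 peaks hold CC, any 3 bases, AG, any 2 bases and GG, or the reverse complement. This pattern is a loose form of the site of CTCF, the factor that anchors chromatin loops. The printed Kcnj11 promoter peak also held it, wholly in a footprint, at positions 109 to 119. The pattern was chosen after these sequences were seen, and in 7 of the 10 strongest shared Kcn distal peaks the 200-base window held it. Such matches followed peak strength in all genes alike. Among the strongest 10% of shared distal peaks of replicate 1, 27 of 36 Kcn peaks (75%) held it, against 63.5% of 4156 peaks in all. In the weaker 50% the shares were 31 of 132 (23.5%) and 22.5%. Over all distal peaks they were 36.1% in replicate 1 and 25% in replicate 2 for Kcn genes, against 35.4% and 23.2%. The EGR sequence stood out more, in 28 of 363 Kcn distal windows (7.71%) in replicate 1 and 29 of 616 (4.71%) in replicate 2, against 4.23% and 3.42% of all distal windows. Inside distal footprints it was found in 2.92% and 1.82% for Kcn genes, against 1.23% and 1.07%. These shares come from few peaks and their difference was not tested.

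**Figure D5:**
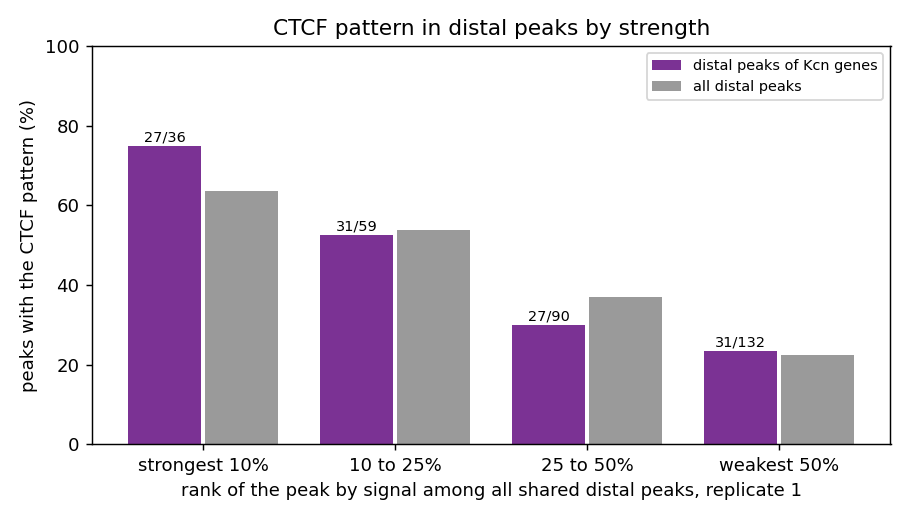
Share of shared distal peaks of replicate 1 whose central 200 bases hold the CTCF pattern, by rank of the peak's signal among all shared distal peaks, for Kcn genes (left bars, with counts) and all distal peaks (right bars). Both fall with peak strength, to 23.5% for Kcn genes and 22.5% for all in the weaker 50%.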

How the data were processed

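Left cerebral cortex was profiled by DNase-seq in 2 libraries of 1 group. The authors deposited, per library, 2 peak lists with a signal per peak (scaling not stated), footprints, and per-base false discovery rates (q-values, listed up to 0.05), on build mm10 per the labels. Peaks and footprints were called in each library separately, per the deposited notes. No aligner, caller or version is given in the sources used here. The reference is that of C57BL/6J while the mice also carry a CAST genome, so sites on CAST alleles may be under-called.

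Gene models were those of GENCODE M21 (basic set) and sequence from GRCm38.p6. The shorter peak list was the main list. Peaks were counted as listed. Some within a list overlap each other, and a footprint inside overlapping peaks entered the footprint densities more than once. Sharing meant at least 1 bp of overlap. A footprint counted when wholly inside a peak. The main TSS was that of the principal, then longest, transcript. Computation used python 3.11.15, numpy 2.4.6, pandas 2.3.3 and matplotlib 3.10.9, and the interval code was tested on simulated data.

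The members, gene lists, motifs and named genes were chosen with earlier results of these data known. Genes named with values were, by rule, the 10 strongest promoters, the strongest and the closed members of each subfamily, members open in 1 library, the 10 densest in distal peaks with windows of 50 kb or more, the 5 with most distal peaks, the 10 strongest shared distal peaks and the 5 largest library differences each way. Others were named after their values were seen. Results of some members are not reported here, although counts over all members include them. Alternatives tried were the longer peak lists, equal numbers of peaks, other promoter distances, flanks, overlaps and transcript sets, and each library alone.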

Additional observations from a re-analysis of the deposited data

How the results depend on the processing

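No paired analysis was possible because the study has 1 group and no contrast. Values are means over the 2 libraries. The number of Kcn genes with a promoter peak (66 on average, 62 in both libraries) stayed within 1.5 times of itself under every alternative run, from 57 in both libraries with equal numbers of peaks to 73 with the longer lists, which added 11 members to the 62 and lost none. With the longer lists the median distal density was 7.99 per 100 kb, against 4.73 in the main lists, and footprints numbered 8.32 per kb of promoter peak, against 10.9, and 9.89 per kb of distal peak, against 12.6. With equal numbers of peaks promoter footprints were 11.7 per kb, and in promoter peaks found in both libraries, an alternative added after the data were seen, 11.7 per kb. Without the 10 kb flanks the distal density was 2.91 per 100 kb. Leaving out either library gave 65 to 67 genes, median promoter signals of 1.55 to 1.89, distal densities of 3.55 to 5.91, shared shares of 51.6% to 87.3%, and footprint densities of 10.7 to 11.2 per kb at promoters and 11.7 to 13.4 per kb at distal peaks. The silent subunits hung most on these choices: Kcnf1, Kcng1, Kcng2 and Kcng3 gained a peak in both libraries with the longer lists, and Kcng4, Kcns1 and Kcns3 lost theirs with equal numbers of peaks. Sequencing depth was not known, and a gene without a peak is not shown to be closed.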

Other observations

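Of 8 clusters of Kcn genes within 100 kb of each other, 4 had all members open in both libraries, 2 had no member with a promoter peak in either, and 2 were mixed. On chromosome 3, Kcna3 (1.28 and 0.841 in replicates 1 and 2) and Kcna2 (1.66 and 1.29) were open beside Kcna10, which had no promoter peak in either library. On chromosome 11, Kcnj2 (4.24 and 3.81) lay next to Kcnj16 (0.389 and 0.547), one of the weakest open members, and Kcnip1 overlaps Kcnmb1, with no promoter peak at either. On chromosome 16, Kcne1 and Kcne2 were both without one. On chromosome 1, Kcnj9 (2.94 and 4.56) and Kcnj10 (2.42 and 1.57), a neuronal and an astrocytic channel gene, were both open, and so were Kcna1 and Kcna6 on chromosome 6 and Kcnk5 and Kcnk16 on chromosome 14. On chromosome 9, Kcnj5 had a promoter peak in replicate 2 alone and Kcnj1 had none.

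In the 300-base promoter windows of all 94 members, open or not, the E-box CAGCTG was present at 22 (23.4%), against 15.7% of all protein-coding genes. The cyclic AMP response element TGACGTCA was present at 0 of 94, against 2.49%, and the SP/KLF sequence at 50 (53.2%), against 45.5%. These shares were not tested, and the members' promoters differ from the rest in CpG content (median observed over expected 0.525 for Kcn genes and 0.571 for all genes).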
